A study of Homo sapiens with 48 samples.

Results

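Desmosome genes, 10 in number, were followed through both assays of a study of MCF10A-1 cells, a human breast epithelial cell line. They are the desmosomal cadherin genes DSG2, DSG3, DSC2 and DSC3, the armadillo protein genes JUP, PKP1, PKP2 and PKP3, the plakin gene DSP, and PERP. The genes were chosen by symbol, and all 10 were found on 1 row each of 14745 rows in the GRO-seq table and of 15535 rows with a symbol in the RNA-seq table. GRO-seq reads RNA in the course of being made, labelled by run-on in nuclei, whereas RNA-seq here reads mRNA captured by its poly(A) tail. The libraries came from SATB1-expressing MCF10A-1 cells and from MCF10A-1 cells with a control vector. SATB1 is a nuclear protein that organises chromatin. Cells of both kinds were exposed to 4 µM benzo[a]pyrene for 3 hours or for 3 days, or left untreated. Benzo[a]pyrene, a combustion product, is a ligand of the aryl hydrocarbon receptor (AHR). The labels call the cell type a malignancy, although MCF10A is widely used as a non-tumorigenic line. With 4 libraries per group there were 24 libraries per assay, all grown with fetal bovine serum in place of horse serum. Neither the promoter that drives SATB1 nor the clonality of the cells is stated in the labels. Values come from the authors' deposited table of each assay, in which each gene has a ratio, the fold change, with its unadjusted p-value in contrasts numbered 1 to 5. Which groups stand on the 2 sides of a contrast is not stated, so higher and lower mean a fold change above or below 1. A gene was called at a p-value adjusted by the Benjamini-Hochberg method over all genes of a contrast under 0.05, and each p given below is adjusted this way unless called unadjusted. The error after ± is the standard error of the log2 fold change implied by the fold change and its p-value. Intervals are the 95% intervals of the fold change made from it.

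Desmosomes are spot-like junctions that join the keratin filaments of neighbouring epithelial cells. Desmogleins (DSG) and desmocollins (DSC) bridge the gap between the cells, plakoglobin (JUP) and the plakophilins (PKP) bind their inner ends, and desmoplakin (DSP) ties this plaque to keratin. PERP is a membrane protein of desmosomes in stratified epithelia and a target of p53 and p63. DSG2, DSC2 and PKP2 are the widely expressed forms, found in simple epithelia and heart, whereas DSG3, DSC3 and PKP1 are typical of basal and stratified epithelium. Loss of junction genes is a usual feature of the epithelial-to-mesenchymal transition (EMT), in which SNAI and ZEB factors repress epithelial genes through E-boxes.

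The 10 genes lie on 6 chromosomes in the RefSeq annotation of GRCh38.p14. The 4 cadherin genes stand in 1 cluster on chromosome 18, with DSC3 at 30989365 to 31042742, DSC2 at 31058840 to 31102421, DSG3 at 31447741 to 31478702 and DSG2 at 31498177 to 31549008. DSP (7541671 to 7586714) and PERP (138088505 to 138107419) lie far apart on chromosome 6. JUP is on chromosome 17 (41754609 to 41786711), PKP1 on chromosome 1 (201283506 to 201332989), PKP2 on chromosome 12 (32790755 to 32896777) and PKP3 on chromosome 11 (392596 to 404908).

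The 250 bases before the start were read for 8 of the 10 genes from RefSeq windows of GRCh38.p14, which hold 10 starts of these genes, 2 each for JUP and DSC2. PKP2 and PKP3 had no entry. Each was searched on both strands for the core of the AHR site (GCGTG), for the E-box bound by SNAI and ZEB factors (CACCTG) and for the grainyhead-like (GRHL) site AACCGGTT. No matches of different motifs overlapped. The E-box was present before DSP, DSG2, DSC2 and JUP, in 4 of 10 windows, against 17.5% of 35116 windows of all genes. The AHR core was present in both JUP windows and in no other of the 10, against 32.2% of all windows. The GRHL site was in none of the 10 and in 0.117% of all windows. Over the 17555 windows of genes in the RNA-seq table, the shares were 16.7% (E-box), 40.9% (AHR core) and 0.154% (GRHL site). The 4 windows shown were chosen because they set the RNA-seq values of contrast 1 beside the letters: DSP and DSG2 both carry 2 E-boxes, JUP carries the AHR core, and PKP1, the member with the smallest fold change, carries none of the 3 motifs. Capitals mark E-boxes in DSP (positions -178 to -173 and -85 to -80 from the start) and in DSG2 (-232 to -227 and -116 to -111), and the AHR core in JUP (-44 to -40).
DSP, chr6:7541421-7541670, plus strand: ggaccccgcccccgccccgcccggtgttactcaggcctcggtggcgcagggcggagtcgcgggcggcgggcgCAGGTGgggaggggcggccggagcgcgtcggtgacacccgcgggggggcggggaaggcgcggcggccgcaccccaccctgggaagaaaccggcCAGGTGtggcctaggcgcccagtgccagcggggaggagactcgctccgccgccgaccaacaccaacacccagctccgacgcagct
DSG2, chr18:31497927-31498176, plus strand: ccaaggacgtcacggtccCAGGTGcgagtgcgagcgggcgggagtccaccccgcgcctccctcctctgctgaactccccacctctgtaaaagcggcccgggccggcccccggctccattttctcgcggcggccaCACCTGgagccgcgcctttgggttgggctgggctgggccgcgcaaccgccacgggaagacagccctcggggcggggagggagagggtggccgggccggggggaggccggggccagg
JUP, chr17:41786712-41786961, minus strand: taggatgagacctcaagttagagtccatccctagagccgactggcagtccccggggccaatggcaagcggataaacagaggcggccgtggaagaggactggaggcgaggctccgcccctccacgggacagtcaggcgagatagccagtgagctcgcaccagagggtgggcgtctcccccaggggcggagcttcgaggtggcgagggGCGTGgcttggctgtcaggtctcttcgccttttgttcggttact
PKP1, chr1:201283256-201283505, plus strand: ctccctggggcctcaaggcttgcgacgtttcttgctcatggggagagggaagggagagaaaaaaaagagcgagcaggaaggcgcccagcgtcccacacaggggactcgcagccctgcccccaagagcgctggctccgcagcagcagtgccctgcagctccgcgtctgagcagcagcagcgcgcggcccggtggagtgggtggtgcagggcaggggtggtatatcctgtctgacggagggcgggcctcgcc
These matches describe the windows only, and no binding was measured.

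In contrast 1 of RNA-seq, mRNA of most desmosome genes was lower. Of the 10 genes, 8 were lower and 1 was higher, 9 called in all. Among all 15535 genes of the table, 20.7% were lower and 23.2% higher, 43.9% in all. Their median log2 fold change was -0.58, against 0.01 for all genes. Contrast 1 is the one in which SATB1 changed most, with 112-fold in the authors' deposited RNA-seq table (log2 6.81 ± 0.14, adjusted p = 2.3e-26), while SATB1 was not analysed in GRO-seq here.

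Among the 4 desmosomal cadherin genes of the group, the basal desmoglein gene DSG3 had the lowest fold change of contrast 1, 0.55 in the authors' deposited table (log2 -0.86 ± 0.045, adjusted p = 2.8e-16). The desmocollin genes were lower by smaller amounts, DSC3 at 0.694 (-0.53 ± 0.034, adjusted p = 6.4e-14) and DSC2 at 0.757 (-0.40 ± 0.048, adjusted p = 3e-08). DSG2, the widely expressed desmoglein, went the other way. Its fold change was 1.06 (interval 1.03 to 1.1, adjusted p = 0.0014), the only increase among the 10 genes, and it is small.

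The plaque genes spanned a wider range. PKP1, which encodes the plakophilin of stratified epithelia, had a fold change of 0.166 in the authors' deposited table (interval 0.119 to 0.232, log2 -2.59 ± 0.24, adjusted p = 1.2e-10), at percentile 0.418 of all genes. PKP2 was lower at 0.779 (-0.36 ± 0.041, adjusted p = 1.4e-08). PKP3 was not called (1.03, interval 0.98 to 1.08, adjusted p = 0.36). The 3 plakophilin genes thus covered the lowest value of the 10 and a value near 1. JUP, whose product binds both desmosomal and classical cadherins, was at 0.649 (-0.62 ± 0.028, adjusted p = 6.9e-18). DSP, which encodes the keratin-binding plakin, was at 0.641 (-0.64 ± 0.022, adjusted p = 1.4e-20) and PERP at 0.56 (-0.84 ± 0.057, adjusted p = 2e-13). Leaving PKP1 aside, the 7 other lowered genes lay between 0.55 and 0.779. With a minimum change of 1.5-fold, 5 genes stayed lower and none higher. The share of all genes passing this minimum was not counted, so these 5 have no comparison.

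**Figure D1:**
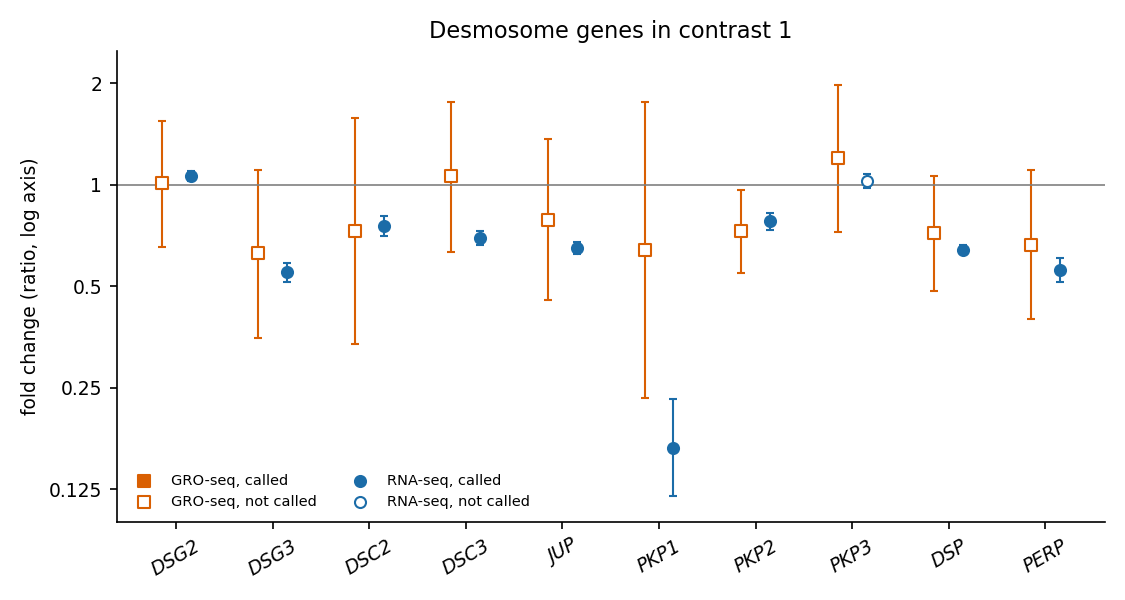
Fold change of each desmosome gene in contrast 1 (log axis), with GRO-seq as squares and RNA-seq as circles, error bars as 95% intervals from the implied standard errors, and filled symbols for called genes. RNA-seq circles lie below 1 for 8 genes, lowest for PKP1 at 0.166, while no GRO-seq square is filled.

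Nascent transcription in contrast 1 was measured with much wider errors. None of the 10 genes was called in GRO-seq, where 0.787% of all 14745 genes were called (0.495% lower, 0.292% higher). An unadjusted p under 0.05 was found for 2162 of all genes and for 1 of the 10. That gene was PKP2, with a fold change of 0.728 in the authors' deposited table (interval 0.549 to 0.965, adjusted p = 0.27). Of the 10 genes, 7 had fold changes below 1 in both assays, among them DSG3 (0.626 in GRO-seq), PERP (0.665) and DSP (0.718). DSC3 was the 1 gene above 1 in GRO-seq (1.06, interval 0.634 to 1.76) and below 1 in RNA-seq. For 8 of the 10 genes the GRO-seq interval included the RNA-seq fold change as well as 1, so a nascent change of the size seen in mRNA was not detectable there. PKP1 and PKP2 were the exceptions. The PKP1 interval (0.233 to 1.76) lay just above its RNA-seq value, and the PKP2 interval held the RNA-seq value but not 1.

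Across the other contrasts, RNA-seq changes of these genes were smaller. In contrast 2, 3 genes were lower and none higher, against 9.63% lower and 9.64% higher (19.3% in all) among all genes. They were DSG3 (0.891, adjusted p = 0.0053), PKP3 (0.913, adjusted p = 0.0077) and PKP2 (0.912, adjusted p = 0.017) in the authors' deposited table. Their median log2 fold change was -0.02, close to the -0.01 of all genes. The other 7 genes lay between 0.912 for PKP1 and 1.09 for PERP. Contrast 4 called PKP3 alone (0.924, interval 0.879 to 0.97, adjusted p = 0.036), against 4.9% lower and 3.87% higher (8.77% in all) among all genes. PKP3 was called in contrasts 2 and 4 and in no other contrast. DSG3 and PKP2, also called in contrast 2, lay below 1 in contrast 4 without being called. DSG3 was at 0.916 (unadjusted p = 0.012, adjusted p = 0.095) and PKP2 at 0.953 (adjusted p = 0.35).

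DSP, DSG3, JUP and DSC3 were lower in both contrast 3 and contrast 5. In contrast 3, DSP (0.8, log2 -0.32 ± 0.022, adjusted p = 3.2e-13), DSG3 (0.778, -0.36 ± 0.043, adjusted p = 5.9e-08), JUP (0.879, adjusted p = 1.8e-06) and DSC3 (0.871, adjusted p = 1.6e-05) were lower in the authors' deposited table. The 2 genes that were higher were DSG2 (1.1, adjusted p = 5e-06) and DSC2 (1.12, adjusted p = 0.0052). That is 4 lower and 2 higher of 10, against 17.8% lower and 18.3% higher among all genes. In contrast 5 the 4 genes lowered in contrast 3 were lower again, together with PERP, and none was higher, against 10.9% lower among all genes. DSG3 had the smallest fold change there (0.728, interval 0.68 to 0.781, adjusted p = 2e-08). PERP followed at 0.865 (adjusted p = 0.011), DSP at 0.883 (adjusted p = 5.9e-07), DSC3 at 0.892 (adjusted p = 0.00096) and JUP at 0.9 (adjusted p = 0.00024). The contrasts may share libraries, so these lists are given side by side and their overlap is no evidence of its own.

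Over the 5 RNA-seq contrasts, DSG3 was lower in 4, and DSP, JUP and DSC3 in 3 each. DSC2 was lower in contrast 1 and higher in contrast 3, and DSG2 was called in contrasts 1 and 3, higher in both. PKP1 was called in contrast 1 alone. Its errors were uneven, with implied standard errors of 0.14 in contrasts 2 and 3 but 0.31 and 0.32 in contrasts 4 and 5, where its fold changes were 0.801 (interval 0.515 to 1.25) and 0.833 (interval 0.533 to 1.3). A decrease of PKP1 mRNA of up to about this size was therefore not detectable in contrasts 4 and 5. For the other 9 genes, RNA-seq standard errors lay between 0.021 and 0.06.

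**Figure D2:**
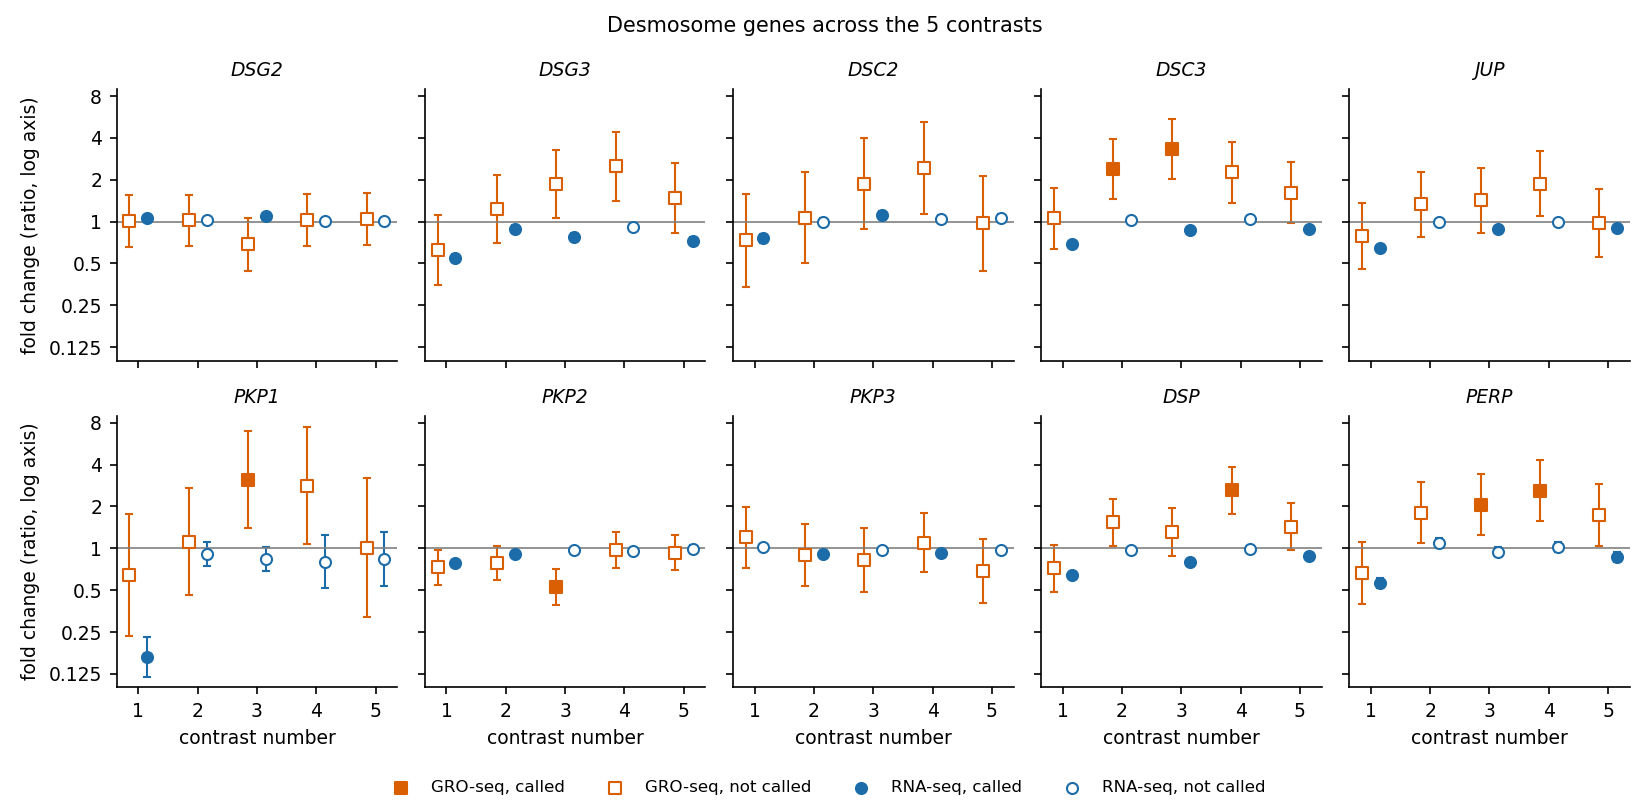
Fold change (log axis) of each desmosome gene in the 5 numbered contrasts, GRO-seq as squares and RNA-seq as circles, with 95% intervals from the implied standard errors and filled symbols for called values. GRO-seq values of DSP, DSG3, DSC2, DSC3, PKP1 and PERP lie above 2 in contrast 4, while RNA-seq values outside contrast 1 stay between 0.728 and 1.12.

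In GRO-seq, nascent transcription was higher for 1 desmosome gene in contrast 2, for 3 in contrast 3 and for 2 in contrast 4. Of 50 values, 6 were called higher and 1 lower, in 5 genes. DSC3 had the highest called value. It was 2.39 in contrast 2 (log2 1.26 ± 0.35, adjusted p = 0.016) and 3.34 in contrast 3 (1.74 ± 0.35, adjusted p = 0.0012) in the authors' deposited table. In contrast 2 it was the only member called, against 7.63% higher and 7.83% lower (15.5% in all) among all genes.

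In contrast 3 of GRO-seq, 3 genes were higher and 1 was lower, against 9.23% higher and 8.92% lower (18.1% in all) among all genes. Besides DSC3, these were PKP1 (3.12, interval 1.4 to 6.96, adjusted p = 0.044) and PERP (2.05, interval 1.24 to 3.4, adjusted p = 0.042), both close to the threshold, in the authors' deposited table. PKP2 was lower at 0.529 (interval 0.394 to 0.711, log2 -0.92 ± 0.21, adjusted p = 0.0032). The stratified plakophilin gene PKP1 and the widely expressed PKP2 thus moved in opposite directions in this contrast. DSG2, the widely expressed desmoglein, was at 0.691 (interval 0.444 to 1.07, adjusted p = 0.25) and was not called.

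In contrast 4 of GRO-seq the members' median was farthest from 1. The median log2 fold change of the 10 genes was 1.24 (2.36-fold), against 0.01 for all genes. DSP (2.61, log2 1.38 ± 0.27, adjusted p = 0.005) and PERP (2.59, log2 1.37 ± 0.35, adjusted p = 0.031) were higher in the authors' deposited table, 2 of 10, against 1.58% higher and 1.53% lower (3.11% in all) among all genes. Another 5 had an unadjusted p under 0.05 and were not called. They were DSC3 (2.27, adjusted p = 0.064), DSG3 (2.51, adjusted p = 0.07), DSC2 (2.44, adjusted p = 0.22), JUP (1.88, adjusted p = 0.23) and PKP1 (2.83, adjusted p = 0.28). These 7 genes stood between percentiles 95.1 and 98.5 of all fold changes. Among all 14745 genes, 2294 had an unadjusted p under 0.05. DSG2 (1.03, interval 0.672 to 1.58), PKP2 (0.97, interval 0.726 to 1.3) and PKP3 (1.1, interval 0.678 to 1.8) lay near 1. At an adjusted p under 0.1, or with all 5 contrasts adjusted together, 4 genes were higher. The share of all genes called at these 2 settings was not counted. None was called under the stricter Benjamini-Yekutieli adjustment. Fibroblast markers also had high values in this contrast. Of 9 measured of 10, 8 were above 1 and 6 had an unadjusted p under 0.05, with a median log2 fold change of 1.66, and 1 was called, DCN at 24.8 (adjusted p = 0.018). None of 5 measured immune and 4 measured endothelial markers was called or had an unadjusted p under 0.05. The part of these markers in the members' values was not tested.

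In contrast 5 no member was called in GRO-seq, where 0.237% of all genes were. An unadjusted p under 0.05 was found for 1702 of all 14745 genes and for 1 of the 10. That gene was PERP at 1.73 (interval 1.04 to 2.88, adjusted p = 0.39). DSC3 was at 1.62 (interval 0.977 to 2.7) and DSP at 1.43 (interval 0.966 to 2.12) in the authors' deposited table.

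**Figure D3:**
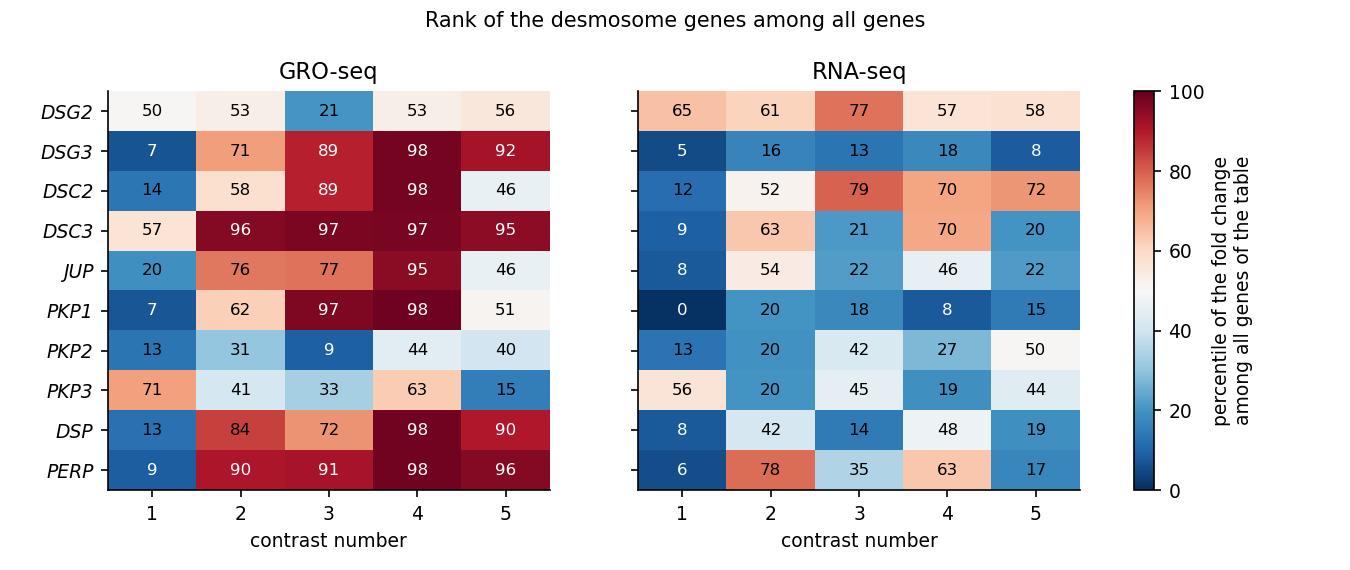
Percentile of each desmosome gene's fold change among all genes of its table, by contrast number, for GRO-seq (left) and RNA-seq (right), where 0 is the lowest fold change and 100 the highest. In all, 7 genes stand above 95 in GRO-seq contrast 4, and 8 stand at or below 13.1 in RNA-seq contrast 1.

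The assays are set side by side here for the genes called in GRO-seq contrasts 3 and 4. Each table was normalised on its own, so no test was made between them, and that a numbered contrast compares the same groups in both is not stated. In contrast 3, DSC3 was higher in GRO-seq (3.34, interval 2.03 to 5.49) and lower in RNA-seq (0.871, interval 0.831 to 0.912). It is the only member called in opposite directions in the same contrast, and no member was called in the same direction in both assays in any contrast. In contrast 4, DSP was 2.61 in GRO-seq (interval 1.76 to 3.85), against 0.993 in RNA-seq (interval 0.962 to 1.03) in the authors' deposited table. PERP was 2.59 in GRO-seq (interval 1.56 to 4.3), against 1.03 in RNA-seq (interval 0.943 to 1.11). Both genes were picked because they were called in GRO-seq, so the gap between these intervals is no test between the assays. PKP1 had wider gaps with wider errors. It was 3.12 in GRO-seq (interval 1.4 to 6.96), against 0.84 in RNA-seq (interval 0.686 to 1.03), in contrast 3, and 2.83 (interval 1.08 to 7.43) against 0.801 (interval 0.515 to 1.25) in contrast 4. PKP2, lower in GRO-seq contrast 3 at 0.529, was at 0.967 in RNA-seq (interval 0.915 to 1.02). In contrast 3, 6 of the 10 genes had a GRO-seq fold change above 1 and an RNA-seq fold change below 1, against 27.3% of the 13772 genes in both tables. In contrast 4 this held for 5 genes, against 24.5%, and in contrast 5 also for 5, against 27.8%. In contrast 1 it held for 1 gene, against 24.7%, and in contrast 2 for 3 genes, against 21%.

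The differences between contrasts were tested within each assay with the sum of the 2 standard errors, the largest error that any sharing of libraries allows. Of 100 differences among the 10 genes in RNA-seq, 38 were called. Contrast 1 against each of the others gave 8 called genes in each of the 4 pairs. DSP, JUP, DSG3, DSC2, DSC3, PKP1, PKP2 and PERP had lower fold changes in contrast 1 than in contrast 2, 3, 4 or 5. The share of all genes called in those pairs was 21%, 13.5%, 21.7% and 13.9%. For PKP1, contrast 1 lay 2.46 below contrast 2 on the log2 scale (log2 -2.59 against -0.13, error 0.38, adjusted p = 1.1e-05). For PKP2, at the other end, the difference was 0.23 (error 0.08, adjusted p = 0.043).

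Contrasts 2 to 5 differed for 3 genes. DSP was lower in contrast 3 than in contrast 2 (log2 -0.32 against -0.03, adjusted p = 2.6e-05), as were DSC3 (-0.20 against 0.04, adjusted p = 0.025) and JUP (-0.19 against 0.00, adjusted p = 0.029), where 5.28% of all genes were called. Contrast 4 lay above contrast 3 for DSP (adjusted p = 1.3e-05) and DSC3 (adjusted p = 0.018), against 5.95% of all genes. DSP was also lower in contrast 5 than in contrast 4 (log2 -0.18 against -0.01, adjusted p = 0.039), against 2.34%. No member differed between contrasts 2 and 4, 2 and 5, or 3 and 5, against 0.135%, 3.5% and 0.521% of all genes called. In these pairs, 0, 5 and 2 of the 10 had an unadjusted p under 0.05. In GRO-seq none of 100 differences was called and 6 had an unadjusted p under 0.05. Of these, 3 lay between contrasts 4 and 1, where 0.149% of all genes were called, with DSG3 at 2.00 on the log2 scale (error 0.80, adjusted p = 0.57), PERP at 1.96 (error 0.71, adjusted p = 0.47) and DSP at 1.86 (error 0.55, adjusted p = 0.28). Another 2 lay between contrasts 3 and 1, with DSC3 at 1.66 (error 0.70) and PERP at 1.63 (error 0.71). The last, PKP2 at 0.87 (error 0.41), lay between contrasts 4 and 3. In these pairs 0.149%, 0% and 0.0746% of all genes were called. The share of all differences with an unadjusted p under 0.05 was not counted, so these 6 have no comparison.

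The cadherin cluster on chromosome 18 spans 559644 bases and holds 3 further desmosomal cadherin genes, DSC1, DSG1 and DSG4, between the members. DSG1, which encodes the desmoglein of differentiated epidermal layers, had a fold change of 0.127 in RNA-seq contrast 1 (interval 0.0586 to 0.276, adjusted p = 4.2e-05) and 16.5 in GRO-seq contrast 4 (interval 4.41 to 62.1, adjusted p = 0.014) in the authors' deposited table. DSG4, a desmoglein of hair, was lower in GRO-seq contrasts 2 (0.119, adjusted p = 0.0048) and 3 (0.171, adjusted p = 0.011) and was not analysed in RNA-seq here. DSC1 was called in no contrast. Neighbours in the cluster therefore did not share 1 value: in RNA-seq contrast 1, DSG3 and DSG2, which stand next to each other, had fold changes of 0.55 and 1.06. Since nothing says if the counting was stranded, reads of antisense transcripts cannot be told apart from those of these genes.

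**Figure D4:**
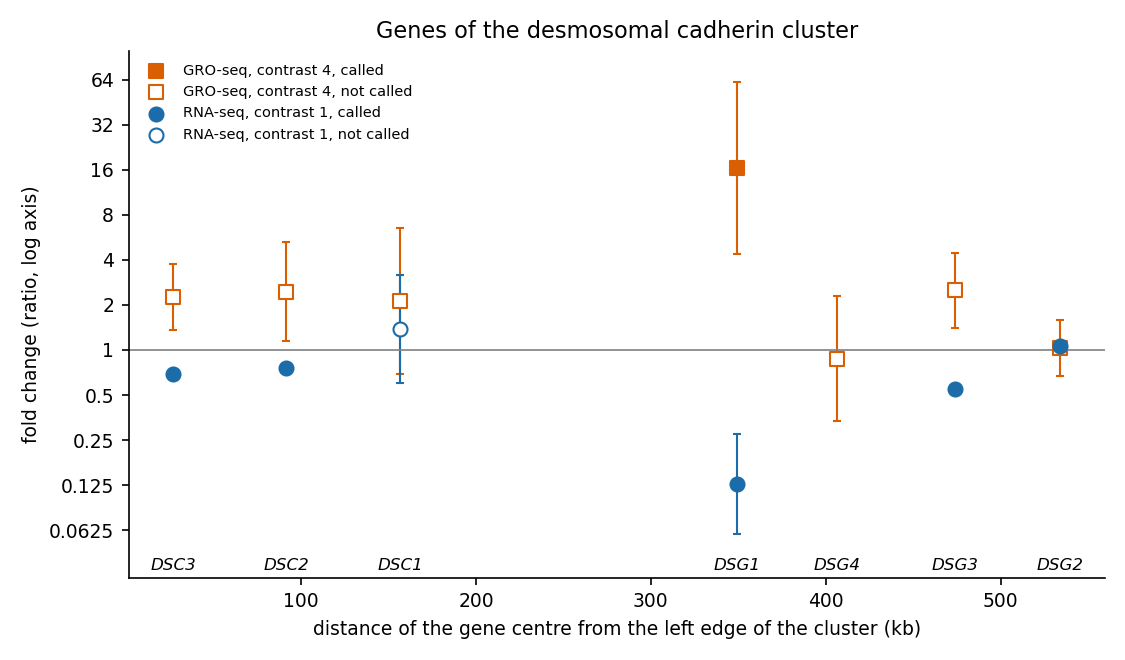
Fold change (log axis) of the 7 desmosomal cadherin genes against the distance of the gene's centre from the left edge of their cluster, in GRO-seq contrast 4 (squares) and RNA-seq contrast 1 (circles), with 95% intervals and filled symbols for called genes. DSG1 has the highest square (16.5) and the lowest circle (0.127), while both symbols of DSG2 lie near 1.

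Of the other desmosome and plakin genes, 8 of 10 were measured in RNA-seq, and 3 were lower and none higher in contrast 1. Besides DSG1 these were PPL, which encodes the plakin periplakin (0.229, log2 -2.13 ± 0.071, adjusted p = 4.7e-21), and KAZN, which encodes kazrin (0.84, adjusted p = 2.1e-05), in the authors' deposited table. PPL was also lower in contrast 3 (0.683) and contrast 5 (0.543), the contrasts in which DSP was lower. In contrasts 2, 3, 4 and 5, the list had 3, 3, 1 and 2 of its 8 measured genes lower and none higher. Among all genes, 9.63%, 17.8%, 4.9% and 10.9% were lower there, and 20.7% in contrast 1. The shares higher were 9.64%, 18.3%, 3.87% and 10.5%, and 23.2% in contrast 1.

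The keratin genes, whose filaments attach to DSP, were also read in both assays. In RNA-seq contrast 1, 8 of 14 were lower and 4 higher, with KRT15 (0.202), KRT14 (0.568), KRT17 (0.644) and KRT5 (0.727) among those lower in the authors' deposited table. The 4 higher were KRT8 (1.37), KRT6A (1.23), KRT18 (1.2) and KRT7 (1.1). In contrast 3, 9 were lower and 2 higher, and in contrast 5, 5 were lower and 3 higher. Among all genes, 20.7% were lower and 23.2% higher in contrast 1, 17.8% and 18.3% in contrast 3, and 10.9% and 10.5% in contrast 5. In GRO-seq contrast 4, 7 of 14 were higher and none lower, with KRT10 (7.3, adjusted p = 0.00055), KRT5 (3.36, adjusted p = 0.00095) and KRT14 (2.74, adjusted p = 0.0017). Among all genes, 1.58% were higher and 1.53% lower there. KRT13 (0.468), KRT7 (0.539), KRT8 (0.745), KRT18 (0.804) and KRT15 (0.853) lay below 1 and were not called. The median log2 fold change of all 14 keratin genes there was 1.54. Keratins have near-identical copies, KRT6A and KRT6B among them, so their values are uncertain.

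Genes of other junctions were read beside them. Of 8 hemidesmosome genes, which anchor cells to the basement membrane, 5 were higher and 2 lower in RNA-seq contrast 1, with the laminin chain genes LAMB3 (1.65) and LAMA3 (1.42) higher and DST, which encodes dystonin (0.59), lower in the authors' deposited table. In that contrast 23.2% of all genes were higher and 20.7% lower. Of 10 adherens junction genes, 3 were higher and 2 lower. The lowered genes were CDH1, which encodes E-cadherin (0.662, adjusted p = 9.4e-17), and NECTIN4 (0.474, adjusted p = 1.3e-11). Whether these lists differ from the desmosome genes was not tested.

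Among regulators, 9 of 11 measured epithelial transcription factor genes were lower and none higher in RNA-seq contrast 1, including, in the authors' deposited table, ZNF750 (0.242), GRHL3 (0.275) and KLF4 (0.465). Among all genes, 20.7% were lower and 23.2% higher there. RNA-seq contrasts 2 to 5 had 2, 0, 0 and 1 of the 11 higher and 4, 4, 2 and 4 lower. OVOL1 was higher in contrast 2 (2.3, adjusted p = 0.0032). In GRO-seq contrast 3, 6 of 12 of these factor genes were higher and none lower, against 9.23% and 8.92% of all genes. TP63, the master factor of basal epithelium, was at 3.25 there (adjusted p = 5e-05). TP63 mRNA was lower in that contrast (0.894, adjusted p = 0.0068) and in RNA-seq contrasts 1 (0.81), 2 (0.716) and 4 (0.776). Of 6 EMT repressor genes, SNAI2 (1.18, adjusted p = 1e-05) and ZEB1 (1.25, adjusted p = 0.0027) were higher in RNA-seq contrast 1 and none was lower. Shares of all genes were 23.2% higher and 20.7% lower there. In GRO-seq contrast 1, TWIST2 was lower (0.475, adjusted p = 0.048) and none was higher. ZEB1 and ZEB2 were lower in GRO-seq contrasts 2 (0.484 and 0.308) and 3 (0.44 and 0.234), while both were higher in RNA-seq contrast 3 (1.28 and 1.27). TWIST2 was also lower in GRO-seq contrast 3 (0.351, adjusted p = 0.00047). In GRO-seq contrasts 1, 2 and 3, 0.495%, 7.83% and 8.92% of all genes were lower. TWIST1 was lower in RNA-seq contrasts 2 (0.756) and 4 (0.869), and TWIST2 was higher in RNA-seq contrast 2 (1.09). SNAI2 was lower in RNA-seq contrasts 2 (0.743) and 4 (0.779), and higher in contrasts 3 (1.18) and 5 (1.14). The p53 targets had 18 of 20 lower and 2 higher in RNA-seq contrast 1, against 20.7% and 23.2% of all genes. RNA-seq contrasts 2 to 5 had 6, 6, 3 and 2 of the 20 higher and 2, 4, 2 and 5 lower. The shares of all genes in these 4 contrasts were 9.64%, 18.3%, 3.87% and 10.5% higher. They were 9.63%, 17.8%, 4.9% and 10.9% lower. In GRO-seq contrast 2, 9 of 20 were higher and 1 lower, against 7.63% and 7.83% of all genes. In GRO-seq contrasts 3, 4 and 5, 12, 5 and 2 of 20 were higher and none lower. Among all genes, 9.23%, 1.58% and 0.115% were higher there. None of the 20 was called in GRO-seq contrast 1.

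By distance over the 5 RNA-seq contrasts, the genes closest to the median profile of the 10 members (log2 -0.58, -0.02, -0.13, -0.01 and -0.16) were HTRA1 at 0.049, PTPRZ1 at 0.083, MTURN at 0.091, TLL1 at 0.096 and PELI1 at 0.096. The distance is Euclidean, on log2 fold changes. HTRA1, a secreted serine protease gene, had fold changes of 0.671, 0.97, 0.936, 0.986 and 0.888 in contrasts 1 to 5.

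The tables hold ratios and no levels, so the epithelial identity of the cells could not be checked against marker levels, and the depth of the libraries is unknown. Since no label says that the 4 libraries of a group came from separate cultures, the p-values reflect spread among libraries that may be technical. CYP1A1, an AHR target, was higher in RNA-seq contrasts 2 to 5. It had RNA-seq fold changes of 195, 36, 45.6 and 4.79 there, against 1.46 in contrast 1 (adjusted p = 0.12), in the authors' deposited table. Markers of other cell types changed beside the desmosome genes in RNA-seq contrast 1, where 23.2% of all genes were higher and 20.7% lower. Of 10 fibroblast markers 5 were higher and 2 lower (DCN at 0.125, COL1A2 at 681), of 5 measured of 9 immune markers 1 was higher (CD163, 302) and none lower, and of 4 measured of 6 endothelial markers 3 were lower and none higher. The part of these markers in the desmosome values was not tested.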

How the data were processed

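Per the file headers, the deposited tables give a fold change (a linear ratio) and a p-value for each gene symbol. Tools named in the submitters' processing notes are BWA 0.7.16a, featureCounts and limma (GRO-seq libraries) and STAR and DESeq (RNA-seq libraries), on GRCh38; no settings, order or filters are stated. One label text gives the short exposure another length than the titles and time labels, which were followed.

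The authors' p-values were adjusted with the Benjamini-Hochberg procedure in each contrast across 14745 GRO-seq and 15535 RNA-seq rows; 156 RNA-seq rows (0.994%) carry no symbol and were left out. An implied standard error divides the size of the log2 fold change by the Student quantile of its p, using 24 (GRO-seq) or 30 (RNA-seq) degrees of freedom, where the 5 errors of a gene varied least. Its median was 0.319 and 0.0577. Differences between contrasts were divided by the sum of both errors and adjusted over all genes. No levels per library were used, and depth is unknown.

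The members and the 11 other lists were chosen with earlier results of these data known. Named are all members, SATB1, CYP1A1, CYP1B1 and CDH1 as checks, up to 4 called genes with the smallest p of each list in each contrast, of which the text gives part, and the 5 genes nearest to the members' median profile. One gene of the hemidesmosome list is not reported here and was left out of its counts. Lists skip symbols that stand on several rows, and symbols starting with a digit, as dates do, were kept out of the nearest genes. DSC1 was described for its place in the cluster, and the neighbours of the cluster after their values were seen.

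The calculations were tested on simulated data. Alternatives were other thresholds on the adjusted p (0.01, 0.1), minimum changes (1.2-fold, 1.5-fold), other adjustments, independent errors and centring. The work was done in Python 3.11.15 (scipy 1.17.1 for tests, pandas 2.3.3 and numpy 2.4.6 for tables, matplotlib 3.10.9 for plots).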

Additional observations from a re-analysis of the deposited data

How the results depend on the processing

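No paired analysis was possible because the tables give comparisons and no values per library, so no library could be left out either. No called member value changed direction after centring on the median of all genes, whose log2 shift was at most 0.024 in size. Among values not called, PKP2 in RNA-seq contrast 5 (0.996, percentile 50.4) moved from just below 1 to just above. Of the 100 member values, none changed its call when all rows were adjusted. The numbers of called members that moved by a ratio above 1.5, or to 0, follow, with the number as reported in brackets. Smaller moves are not listed. With a minimum of 1.2-fold, for instance, DSG2 (1.06) was no longer called in RNA-seq contrast 1. In GRO-seq contrast 2 (1), 0 were called at an adjusted p under 0.01 and 0 by Benjamini-Yekutieli. In GRO-seq contrast 3 (4), 2 were called at 0.01, 2 with the 5 contrasts adjusted together and 2 by Benjamini-Yekutieli. In GRO-seq contrast 4 (2), 1 was called at 0.01, 4 at 0.1, 4 with the contrasts together and 0 by Benjamini-Yekutieli. In RNA-seq contrast 1 (9), 5 were called with a minimum of 1.5-fold. In RNA-seq contrast 2 (3), 0 were called with 1.5-fold, 0 with 1.2-fold and 0 by Benjamini-Yekutieli. In RNA-seq contrast 3 (6), 0 were called with 1.5-fold and 2 with 1.2-fold. In RNA-seq contrast 4 (1), 0 were called at 0.01, 2 at 0.1, 0 with 1.5-fold, 0 with 1.2-fold, 2 with the contrasts together and 0 by Benjamini-Yekutieli. In RNA-seq contrast 5 (5), 0 were called with 1.5-fold and 1 with 1.2-fold. Fewer calls under a stricter threshold or a minimum fold follow from its construction. With errors taken as independent, 3 differences between contrasts were called in GRO-seq (0), all between contrasts 4 and 1, for DSP, DSG3 and PERP, and 55 in RNA-seq (38). The median implied error of 0.319 in GRO-seq, against 0.0577 in RNA-seq, limits GRO-seq to larger changes.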

Other observations

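Protein-coding genes within 1000 kb of the desmosomal cadherin cluster were read for comparison, and are given with no test. GAREM1 and B4GALT6 were chosen after the values were seen. Of the other neighbours, MEP1B was lower in RNA-seq contrast 1 (0.222, adjusted p = 0.0044). TRAPPC8 was higher in RNA-seq contrasts 2 (1.11, adjusted p = 0.019) and 3 (1.18, adjusted p = 7.5e-05). RNF125, RNF138 and SLC25A52 were called in no contrast, and TTR has no values here. GAREM1, at the far side of the window, was higher in GRO-seq contrasts 2 (1.8, adjusted p = 0.00051) and 4 (2.77, adjusted p = 4.1e-06) and in RNA-seq contrasts 2 (1.68, adjusted p = 1.3e-13) and 4 (1.49, adjusted p = 2.6e-09) in the authors' deposited table. It was lower in RNA-seq contrast 1 (0.713, adjusted p = 4.5e-09) and higher in RNA-seq contrast 3 (1.14, adjusted p = 0.0018), and was called in GRO-seq in neither of these. B4GALT6, the gene next to TTR beyond DSG2, was lower in GRO-seq contrast 3 (0.572, adjusted p = 0.024) and higher in RNA-seq contrast 3 (1.21, adjusted p = 0.0023), the reverse of DSC3.

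The uneven error of PKP1 in RNA-seq has a counterpart over all genes. Among the 136 genes with a contrast 1 fold change at or below 0.25, which PKP1 is one of, the median implied standard error was 0.287 and 0.314 in contrasts 2 and 3, and 0.561 and 0.606 in contrasts 4 and 5. Among the 333 genes at or above 4, it was 0.666 and 0.658 in contrasts 2 and 3, and 0.317 and 0.332 in contrasts 4 and 5. Over the 15066 genes between, it lay between 0.0548 and 0.0571 in these 4 contrasts.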
